A study of Mus musculus with 9 samples.

Results

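Adipose-derived stem cells (ASCs) cultured from perivascular adipose tissue, the fat around blood vessels, were compared with those cultured from abdominal adipose tissue. The comparison took the 3 libraries labelled perivascular adipose (PVASCs) and the 3 labelled abdominal adipose (Ab-ASCs) of a bulk RNA-Seq series with 9 libraries. Every gene with enough reads was tested, which left 16526 of the 54532 genes in the table. All cells came from mice of the C57BL/6 strain, were grown in a stem cell culture medium that contained leukemia inhibitory factor and FGF, and were harvested at passages 3 to 6 with no differentiation treatment. The age and sex of the mice were not given in the sources used here, and neither was whether the 3 libraries of a depot came from separate animals or cultures. The p-values therefore measure only the spread between these libraries, which may be technical. The remaining 3 libraries, from subcutaneous adipose tissue (Sub-ASCs), were not compared here, but entered the filter on reads, the scaling and the shared estimate of spread.

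ASCs are fibroblast-like cells of the fat stroma that can turn into fat, bone, cartilage and vessel wall cells, and they keep part of the gene programme of the body region they came from. Cells of visceral depots can carry a mesothelial history, since a mesothelium covers the fat of the abdominal cavity, whereas perivascular fat lies next to endothelium, smooth muscle and nerves. T-box, homeobox and Hox transcription factors set regional identity in the embryo, and many of them stay on in adult stromal cells.

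The PVASC libraries held 27136829 to 29881036 reads counted in genes, and the Ab-ASC libraries 20524173 to 23832828. The spread between replicates, as a common coefficient of variation of expression, was 3.85% in PVASCs and 12.5% in Ab-ASCs, where replicate 1 stood apart from the other two. Levels are given as counts per 1000000 reads (CPM), with library totals adjusted by the TMM factors, which compares a gene between libraries. A log2 fold change is PVASC minus Ab-ASC, so a positive value is higher in PVASCs. A gene was called when its adjusted p in edgeR's quasi-likelihood test was under 0.05. Where no library of a group held a read of a gene, the fold is a lower bound against 3 reads in that group's shallowest library, which is 0.161 CPM in Ab-ASCs and 0.102 CPM in PVASCs. Where they held some reads but at most 3 each, the ratio of the pooled reads is given with its exact 95% interval. Bounds and intervals cover counting error only.

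More genes fell than rose in PVASCs, but the larger changes were mostly rises. Of the 16526 genes, 9396 (56.9%) were called, with 4088 (24.7%) higher and 5308 (32.1%) lower in PVASCs. The order turned in a fit of the 6 libraries alone, which tested 15511 genes, with 4305 higher and 4149 lower. At 2-fold or more, 1673 genes (10.1%) were higher and 878 (5.31%) lower. At 8-fold or more the counts were 322 and 113. The median log2 fold change was -0.055 over all genes, 0.83 over genes called higher and -0.44 over genes called lower. The lowest PVASC library lay above the highest Ab-ASC library for 4674 genes, and the highest PVASC library lay below the lowest Ab-ASC library for 5880. Among genes called higher, 45 had no read in any Ab-ASC library, and among genes called lower, 20 had no read in any PVASC library. Protein-coding genes gave 3595 higher and 4987 lower of 13875 tested, whereas long intergenic RNAs were more often higher, 133 of 445 against 49 lower.

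**Figure D1:**
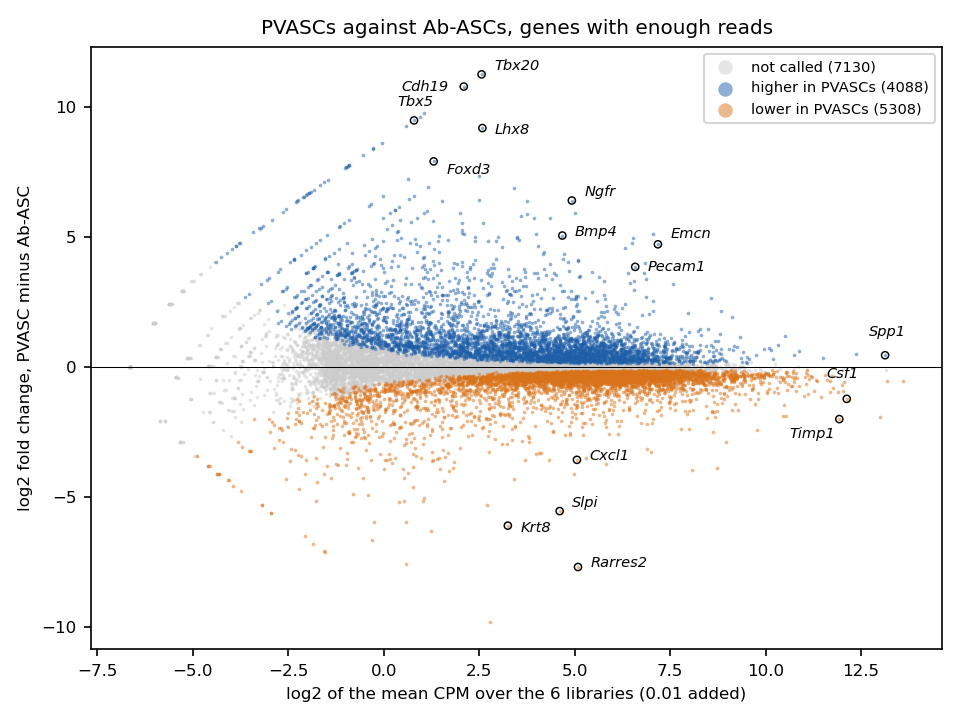
Log2 of the mean level over the 6 libraries (CPM with 0.01 added) on the horizontal axis and log2 fold change (PVASC minus Ab-ASC) on the vertical axis for the 16526 tested genes, with called genes coloured by direction. Tbx20 and Cdh19 sit at the top, with no read in Ab-ASCs, and Rarres2 near the bottom; genes with reads in 1 group depend on the prior count for their fitted height.

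Part of the difference between the groups ran with the base composition of the genes. The median log2 fold change was 0.57 in the decile of genes with the lowest GC content and -0.23 in decile 8. By length it ran from -0.17 in the shortest decile to 0.21 in the longest. The lowest-GC decile had a median of 0.71 against Ab-ASC replicate 1, 0.303 against replicate 2 and 0.38 against replicate 3, so the trend was steepest against replicate 1 and present against each. In a further fit the trend was removed with smooth offsets per library for length and GC content, a choice made after seeing it. Of the 2548 genes called at 2-fold or more that have a GC value, 2418 kept their call and direction in that fit, while 89 genes, none over 0.77 in absolute log2 fold change, were called in the opposite direction. Values of the corrected fit are given below where they change a statement, and whether the trend arose in the cells or in the libraries was not tested.

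**Figure D2:**
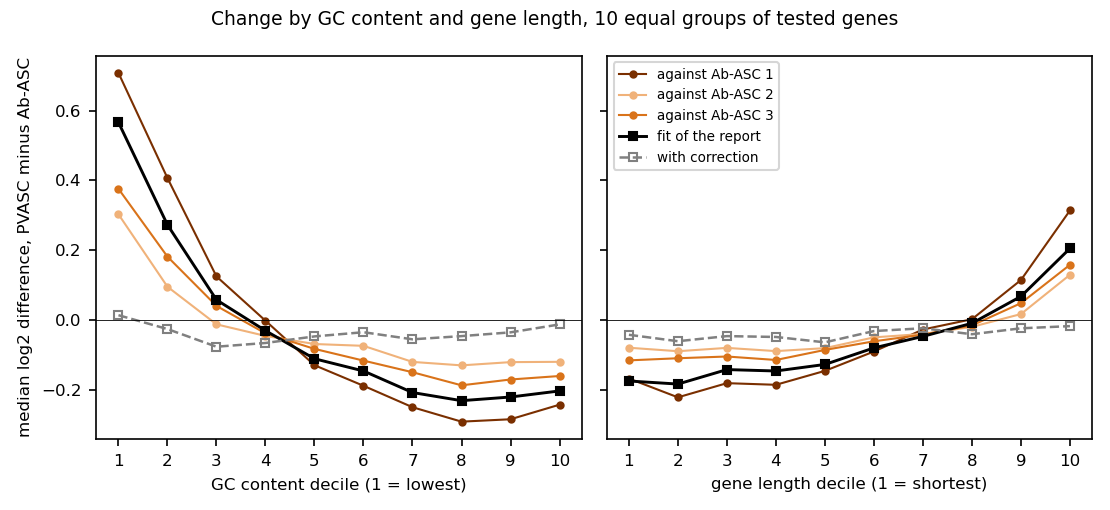
Median log2 fold change (PVASC minus Ab-ASC) in deciles of the tested genes by GC content and by length, before and after the length and GC correction, and against each Ab-ASC library. The lowest-GC decile lies at 0.57 before and 0.014 after the correction.

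Transcription factors of regional identity held several of the largest differences between the depots. Of 72 listed positional factors, 60 were tested, 34 were higher and 19 lower in PVASCs, with a median log2 fold change of 0.56. A gene that is silent in one group passes the filter on low counts only through the others, so counts over tested members describe and do not stand as support. Each count of members called, here and below, is to be read against 24.7% higher and 32.1% lower over all genes tested. Tbx20, the cardiac T-box factor (chr9:24718138-24774303, minus strand of GRCm38), measured 12.04, 11.9 and 11.5 CPM in PVASCs and 0 CPM in each of the 3 Ab-ASC libraries. All 1106 Tbx20 reads were in PVASCs, at least 73.3-fold above the Ab-ASC limit (adjusted p = 6.29e-08). Tbx5, which patterns the heart and forelimb, had 3.58, 3.15 and 3.63 CPM in PVASCs and 0 CPM in each of the 3 Ab-ASC libraries and was at least 21.4-fold higher. Neither gene had a read in an Ab-ASC library.

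Of the 10 T-box genes tested, 7 were higher and 2 lower, at a median log2 fold change of 3.32, and the list held 8 of them, 5 higher and 2 lower. Among those named here after their values were seen, Tbx1, a factor of the pharyngeal arches, measured 10.8, 9.93 and 9.54 CPM in PVASCs and 0.107, 0.4001 and 0.401 CPM in Ab-ASCs (log2 fold change 4.98, SE 0.27, adjusted p = 1.83e-08), and Tbx15 measured 13.6, 13.3 and 14.4 CPM in PVASCs and 0.805, 0.889 and 0.936 CPM in Ab-ASCs (log2 fold change 3.96, SE 0.10, adjusted p = 3.45e-11). Tbx3, which acts in limb and heart conduction tissue, went the other way, at 12.4, 10.5 and 11.5 CPM in PVASCs and 33.7, 38.9 and 34.96 CPM in Ab-ASCs (log2 fold change -1.64, SE 0.082, adjusted p = 9.19e-09). For each of these 3 genes the libraries of the 2 groups did not overlap.

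Forkhead genes moved both ways. Of the 27 tested, 13 were higher and 5 lower, at a median log2 fold change of 0.301, while the 9 forkhead genes chosen for the list were all called higher, at a median of 1.56. Foxd3, a neural crest factor, was at 5.01, 4.54 and 5.22 CPM in PVASCs and 0, 0 and 0.0446 CPM in Ab-ASCs, 313-fold higher by pooled reads (95% interval 55.99 to 12408). Homeobox genes outside the Hox clusters gave 12 higher and 8 lower of 23. Nkx6-1, known from pancreas and motor neurons, was at 3.79, 4.71 and 4.71 CPM in PVASCs and 0, 0 and 0.0892 CPM in Ab-ASCs, 139-fold higher by pooled reads (95% interval 38.4 to 1155). Lhx8, a LIM homeobox factor also used as a brown fat marker, was outside the list but among the 12 largest rises, at 12.99, 11.5 and 11.4 CPM in PVASCs and 0, 0 and 0.0446 CPM in Ab-ASCs, 762-fold higher by pooled reads (95% interval 136 to 30124).

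GATA and HAND factors gave 2 higher and 2 lower of 6, near the 24.7% and 32.1% over all genes tested. The cardiac and mesothelial factor Gata4, named after its values were seen, was higher at 11.2, 11.7 and 12.7 CPM in PVASCs and 1.72, 1.51 and 1.69 CPM in Ab-ASCs (log2 fold change 2.85, SE 0.14, adjusted p = 9.26e-09). Factors abundant in both depots differed less. Prrx1, a mesenchymal homeobox factor, had 534 ± 3.29 CPM in PVASCs and 380.2 ± 30.3 CPM in Ab-ASCs (SD, n = 3; log2 fold change 0.49, SE 0.060, adjusted p = 2.69e-05). Osr1, a factor of lateral plate mesenchyme, was 1.04 log2 units higher, and Twist1, a factor of mesenchymal cells, fell by 0.93 log2 units.

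**Figure D3:**
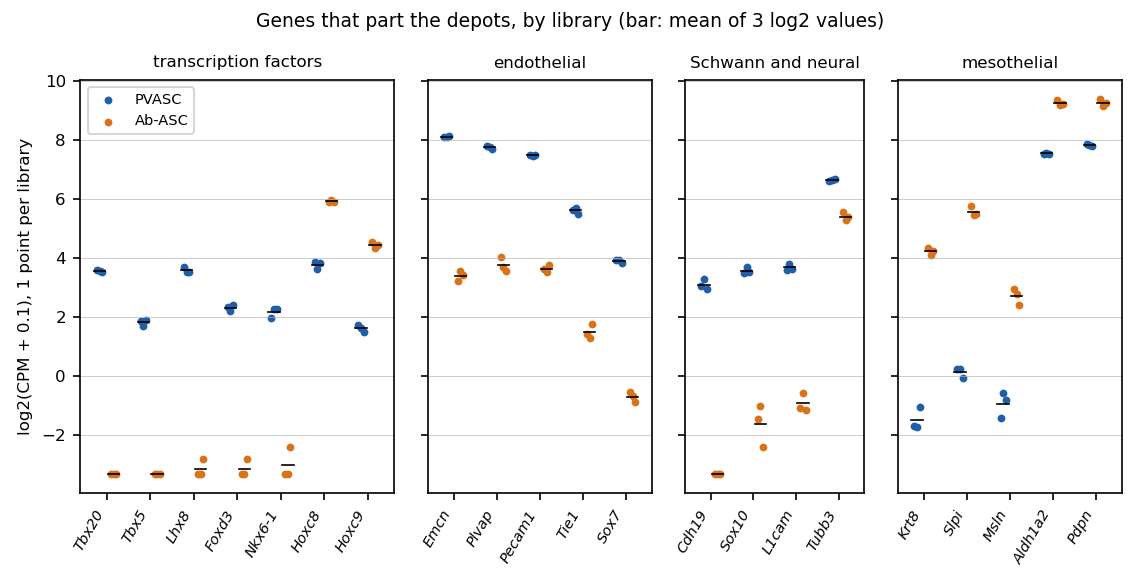
Level of identity genes, as log2 of CPM with 0.1 added, in each of the 3 PVASC and 3 Ab-ASC libraries (1 point each), with a bar at the mean of the 3 log2 values. Libraries with no read lie at the bottom. In each panel the points of the 2 groups do not overlap.

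Hox genes, whose order along their 4 clusters mirrors position along the body, split by cluster. Of 39 listed, 29 were tested, 12 were higher and 10 lower, at a median log2 fold change of 0.025 (0.21 in the corrected fit). All 8 tested Hoxc genes were lower, from -3.91 to -1.14. No Hoxb gene was called lower and 6 of 9 were higher, whereas Hoxa gave 4 higher and 1 lower of 9 and Hoxd 2 and 1 of 3. This grouping by cluster was made after the values were seen. By position, anterior genes (paralogues 1 to 5) gave 6 higher and 2 lower, central genes (6 to 8) 2 and 3, and posterior genes (9 to 13) 4 and 5.

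Hoxc8 measured 14.6, 12.2 and 14.2 CPM in PVASCs and 60.6, 62.2 and 59.6 CPM in Ab-ASCs (log2 fold change -2.15, SE 0.082, adjusted p = 8.57e-10), and Hoxc9 measured 3.21, 3.02 and 2.74 CPM in PVASCs and 23.1, 20.4 and 21.98 CPM in Ab-ASCs (log2 fold change -2.87, SE 0.094, adjusted p = 2.39e-10). Hoxc13, the most posterior Hoxc gene, had 0.306, 0.237 and 0.477 CPM in PVASCs and 5.74, 5.33 and 4.59 CPM in Ab-ASCs (log2 fold change -3.91, SE 0.25, adjusted p = 7.50e-08). In contrast, Hoxb9 stood at 27.7, 25.3 and 24.3 CPM in PVASCs and 5.15, 4.09 and 4.102 CPM in Ab-ASCs (log2 fold change 2.54, SE 0.11, adjusted p = 2.54e-09). Hoxd10 had 2.41, 2.305 and 2.67 CPM in PVASCs and 0.0537, 0.133 and 0 CPM in Ab-ASCs, 39.2-fold higher by pooled reads (95% interval 15.1 to 145). The fitted log2 fold change of Hoxd10 was 6.4 without Ab-ASC replicate 2 and 4.6 without Ab-ASC replicate 3. Hox genes of 1 cluster share transcripts, and Hoxc10 shares 8.696% of its exon bases with Hoxc5, so they are not independent of each other.

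Surface markers by which mesenchymal stem cells are recognised were mostly higher in PVASCs. Of 12 tested, 8 were higher and 2 lower, at a median log2 fold change of 0.74, and 7 and 5 were called in the corrected fit. Thy1 (CD90) measured 874, 905 and 869.8 CPM in PVASCs and 258, 211 and 224 CPM in Ab-ASCs (log2 fold change 1.93, SE 0.069, adjusted p = 5.01e-10). Eng (CD105) had 322, 340.1 and 321 CPM in PVASCs and 154, 134 and 147 CPM in Ab-ASCs (log2 fold change 1.17, SE 0.061, adjusted p = 1.33e-08), and Ly6a (Sca1) had 107, 116 and 110.4 CPM in PVASCs and 25.7, 19.8 and 19.8 CPM in Ab-ASCs (log2 fold change 2.36, SE 0.092, adjusted p = 1.01e-09). All 3 were higher in each PVASC library than in any Ab-ASC library. Cd44, the hyaluronan receptor, fell by 0.41 log2 units, and Nt5e (CD73), named after its values were seen, fell by 1.34 log2 units. Cd34, a progenitor and endothelial antigen, was higher at 90.9, 101 and 93.4 CPM in PVASCs and 15.4, 13.9 and 12.7 CPM in Ab-ASCs (log2 fold change 2.77, SE 0.076, adjusted p = 5.73e-11).

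Markers held to be absent from such cells were detected in both depots, and 4 of 5 tested were higher in PVASCs. Ptprc (CD45), the leukocyte antigen, was low at 2.93, 3.22 and 2.29 CPM in PVASCs and 1.13, 1.56 and 1.56 CPM in Ab-ASCs (log2 fold change 0.97, SE 0.20, adjusted p = 0.00136), and its call was lost in the corrected fit, where the log2 fold change was 0.25 (adjusted p = 0.255). Pecam1 (CD31), the endothelial adhesion molecule, had 179.7, 177 and 182 CPM in PVASCs and 12.2, 11.6 and 13.6 CPM in Ab-ASCs (log2 fold change 3.85, SE 0.070, adjusted p = 3.05e-12). Prom1 (CD133), a progenitor antigen, was at 22.4, 22.1 and 20.8 CPM in PVASCs and 0.591, 0.445 and 0.981 CPM in Ab-ASCs (log2 fold change 4.999, SE 0.17, adjusted p = 2.55e-10), and Kit, the stem cell factor receptor, was 2.36 log2 units higher. Pecam1 thus stood well above Ptprc in both depots, at 28.8 against 0.154 FPKM (a level per gene length) in PVASCs and 2.004 against 0.0772 FPKM in Ab-ASCs.

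Pecam1 did not rise alone. Of the 24 endothelial markers, all tested, 21 were higher and 1 lower in PVASCs, with a median log2 fold change of 2.76 (2.85 in the corrected fit). Their summed level was 1854 to 1885 CPM in PVASCs and 374 to 404 CPM in Ab-ASCs. In bulk samples more cells of a type and more RNA per cell cannot be told apart. Receptors and junction proteins led with 12 of 13 higher. Emcn, the endothelial sialomucin endomucin (chr3:137341067-137432185, plus strand), measured 274, 278 and 286 CPM in PVASCs and 9.29, 11.9 and 10.7 CPM in Ab-ASCs (log2 fold change 4.71, SE 0.088, adjusted p = 3.47e-12). Plvap, which forms the diaphragms of fenestrae, measured 222, 220.2 and 210.3 CPM in PVASCs and 16.3, 13.02 and 11.7 CPM in Ab-ASCs (log2 fold change 3.995, SE 0.10, adjusted p = 2.77e-11). Tie1, an orphan receptor of the angiopoietin system, measured 50.1, 52.3 and 45.4 CPM in PVASCs and 2.63, 2.36 and 3.2997 CPM in Ab-ASCs (log2 fold change 4.15, SE 0.11, adjusted p = 5.73e-11).

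Among members named after their values were seen, Cdh5 (VE-cadherin) had 211, 209 and 207 CPM in PVASCs and 16.6, 17.4 and 17.6 CPM in Ab-ASCs (log2 fold change 3.602, SE 0.061, adjusted p = 1.86e-12), and Kdr, the main VEGF receptor, had 33.9, 35.4 and 33.3 CPM in PVASCs and 13.5, 12.1 and 10.2 CPM in Ab-ASCs (log2 fold change 1.53, SE 0.095, adjusted p = 6.46e-08). Transcription factors of the endothelial lineage were higher in 5 of 7 cases. Sox7 was at 15.2, 15.2 and 14.3 CPM in PVASCs and 0.591, 0.533 and 0.446 CPM in Ab-ASCs (log2 fold change 4.83, SE 0.16, adjusted p = 3.38e-10), and Tal1, shared by blood and endothelial progenitors, was at 16.1, 12.9 and 14.4 CPM in PVASCs and 0.859, 0.533 and 1.03 CPM in Ab-ASCs (log2 fold change 4.17, SE 0.18, adjusted p = 3.11e-09). Edn1, the vasoconstrictor endothelin, was at 109, 107 and 107 CPM in PVASCs and 21.7, 21.7 and 24.8 CPM in Ab-ASCs (log2 fold change 2.24, SE 0.070, adjusted p = 1.59e-10). The exceptions, named after their values were seen, were Cldn5, an endothelial tight junction protein (log2 fold change -0.23, SE 0.26, adjusted p = 0.479), Sox17, an arterial factor (log2 fold change 0.43, SE 0.19, adjusted p = 0.071999), and Klf2, a flow-responsive factor (log2 fold change -0.15, SE 0.060, adjusted p = 0.0466), of which only Klf2 was called, as lower, a call lost in most alternatives.

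Genes of Schwann cells and neurons were the list with the largest median in favour of PVASCs. Of 19 listed, 12 passed the filter and all 12 were higher, at a median log2 fold change of 3.93. Their summed level was 167 to 173 CPM in PVASCs and 42.1 to 51.3 CPM in Ab-ASCs. Most of it was Tubb3 alone, at 98.5 to 104 CPM in PVASCs and 38.8 to 47 CPM in Ab-ASCs. Sox10, the factor of the Schwann lineage, measured 11.3, 13.02 and 11.5 CPM in PVASCs and 0.268, 0.4001 and 0.0892 CPM in Ab-ASCs (log2 fold change 5.54, SE 0.26, adjusted p = 5.80e-09). Cdh19, a cadherin of Schwann precursors, measured 8.22, 9.73 and 7.67 CPM in PVASCs and 0 CPM in each of the 3 Ab-ASC libraries, at least 53.01-fold higher. In both genes the lowest PVASC library lay far above the highest Ab-ASC library. Ngfr, the p75 neurotrophin receptor of neural crest and stromal cells, had 59.3, 62.1 and 58.97 CPM in PVASCs and 0.591, 0.622 and 0.892 CPM in Ab-ASCs (log2 fold change 6.399, SE 0.10, adjusted p = 1.86e-12). L1cam, a neural adhesion molecule, was 4.86 log2 units higher, Gap43, a growth cone protein, 2.89 log2 units higher and Tubb3, a neuronal tubulin, 1.25 log2 units higher. Th, an enzyme of catecholamine neurons, did not pass the filter.

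Pericyte markers shared this direction in part. Of 7 tested, 4 were higher and 1 lower at a median of 1.19, and with the PDGF ligands and receptors the list gave 7 higher and 5 lower of 14. Rgs5, a regulator of G protein signalling in pericytes, had 22.4, 21.9 and 23.5 CPM in PVASCs and 0.4295, 0.845 and 0.981 CPM in Ab-ASCs (log2 fold change 4.87, SE 0.16, adjusted p = 2.40e-10). Mcam (CD146) had 129.9, 139 and 133 CPM in PVASCs and 26.8, 22.05 and 25.9 CPM in Ab-ASCs (log2 fold change 2.43, SE 0.076, adjusted p = 1.59e-10). Of pericyte markers named after their values were seen, Anpep (CD13), a membrane peptidase, fell by 0.79 log2 units, while the potassium channel genes Kcnj8 and Abcc9 were not called, at log2 fold changes of -0.13 and -0.0029. The ligand Pdgfb was higher by 2.17 log2 units. The PDGF receptors Pdgfra and Pdgfrb, abundant in both depots, were lower at log2 fold changes of -0.42 and -0.33, and the receptor-like gene Pdgfrl fell by 2.27 log2 units, so that 3 of 3 receptor genes were lower.

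Mesothelial markers ran the other way. Of 25 listed, 21 were tested, 17 were lower and 3 higher in PVASCs, with a median log2 fold change of -1.48 (-1.34 in the corrected fit). Their summed level was 555 to 572 CPM in PVASCs and 1447 to 1651 CPM in Ab-ASCs. Pdpn and Aldh1a2 made up most of it, at means of 229 and 188 CPM in PVASCs and 620 and 621 CPM in Ab-ASCs. Krt8, a keratin of simple epithelia (chr15:101996698-102004482, minus strand), measured 0.214, 0.203 and 0.382 CPM in PVASCs and 20.3, 17.02 and 18.9 CPM in Ab-ASCs (log2 fold change -6.11, SE 0.28, adjusted p = 4.93e-09). Slpi, a secreted protease inhibitor, measured 1.1005, 1.08 and 0.859 CPM in PVASCs and 54.7, 43.9 and 44.7 CPM in Ab-ASCs (log2 fold change -5.55, SE 0.16, adjusted p = 1.05e-10). Msln (mesothelin), the marker that names the cell type, measured 0.275, 0.576 and 0.477 CPM in PVASCs and 7.62, 6.76 and 5.22 CPM in Ab-ASCs (log2 fold change -3.88, SE 0.26, adjusted p = 1.37e-07). For these 3 genes the 2 groups were far apart and did not overlap. The part that cells of mesothelial, endothelial or Schwann type may have in the other differences was not tested.

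Wt1, the Wilms tumour factor of mesothelium and named after its values were seen, was not confined to Ab-ASCs, at 10.3, 9.897 and 9.57 CPM in PVASCs and 45.5, 45.6 and 51.7 CPM in Ab-ASCs (log2 fold change -2.26, SE 0.11, adjusted p = 5.77e-09). Pdpn (podoplanin) was lower at 235, 229 and 223 CPM in PVASCs and 679, 572 and 609 CPM in Ab-ASCs (log2 fold change -1.44, SE 0.062, adjusted p = 2.39e-09). Cdh1 (E-cadherin) was 75.9-fold lower by pooled reads (95% interval 20.5 to 635), with 2 reads over the 3 PVASC libraries against 103 in Ab-ASCs. Itln1 and Calb2, both defining markers, did not pass the filter. The keratin and epithelial-mesenchymal transition list gave 8 higher and 8 lower of 18. The simple keratin Krt7 fell by 4.38 log2 units. Krt19, a simple keratin also on the mesothelial list and named after its values were seen, went against the other mesothelial keratins, at 14.4, 15.1 and 14.6 CPM in PVASCs and 4.46, 4.76 and 3.97 CPM in Ab-ASCs (log2 fold change 1.74, SE 0.12, adjusted p = 1.66e-07). Of the rest, Krt13 was at least 11.9-fold higher and Krt20 was 2.11 log2 units higher. Vim (vimentin), the mesenchymal filament, was 0.34 log2 units higher, and Snai1, a repressor of E-cadherin, fell by 0.85 log2 units. Among transition factors named after their values were seen, Snai2 and Zeb1 were higher at log2 fold changes of 0.78 and 1.17. Twist2 was lower at -0.25, as was Twist1 at -0.93.

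Genes for retinoic acid, which mesothelial cells make, gave 7 higher and 6 lower of 17, against 24.7% and 32.1% over all genes tested. Aldh1a2, the main synthetic enzyme, measured 187, 192 and 185 CPM in PVASCs and 665, 592 and 607 CPM in Ab-ASCs (log2 fold change -1.72, SE 0.054, adjusted p = 1.64e-10), and Aldh1a3, a related enzyme, fell by 2.51 log2 units. The cellular carrier Crabp1 was 2.53 log2 units higher, and the serum carrier Rbp4 fell by 2.64 log2 units. Rarres2, which encodes the adipokine chemerin (chr6:48569696-48572789, minus strand), had one of the largest falls, at 0.489, 0.305 and 0.159 CPM in PVASCs and 84.6, 55.3 and 63.3 CPM in Ab-ASCs (log2 fold change -7.6999, SE 0.24, adjusted p = 1.77e-10). It shares 33.6% of its exon bases with Lrrc61 on the opposite strand, which had 493 reads over the 6 libraries against 4267.

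Inflammatory genes were mostly lower in PVASCs. Of 52 tested genes of chemokines, cytokines, acute-phase proteins and the receptors, NF-kB factors and enzymes of inflammation, 36 were lower and 10 higher, at a median log2 fold change of -0.98 (-1.11 in the corrected fit). The CXC and CX3C chemokines gave 8 lower and 3 higher of 11, at a median of -2.51. Cxcl1, a neutrophil attractant, measured 5.35, 5.22 and 4.899 CPM in PVASCs and 63.996, 60.9 and 59.8 CPM in Ab-ASCs (log2 fold change -3.58, SE 0.069, adjusted p = 3.93e-12). Cxcl2, a close relative, measured 0.459, 0.203 and 0.286 CPM in PVASCs and 13.9, 11.8 and 12.6 CPM in Ab-ASCs (log2 fold change -5.296, SE 0.19, adjusted p = 4.12e-10), and Cxcl3 fell by 4.07 log2 units. Ppbp, a platelet chemokine, was 69.6-fold lower by pooled reads (95% interval 26.8 to 258).

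Abundant members moved less in fold but more in CPM. Csf1, the macrophage growth factor, measured 2681, 2709.6 and 2612 CPM in PVASCs and 6436, 6111 and 6233 CPM in Ab-ASCs (log2 fold change -1.23, SE 0.042, adjusted p = 3.16e-10), and Ccl2, a monocyte attractant, measured 253, 249 and 262 CPM in PVASCs and 605, 705 and 694 CPM in Ab-ASCs (log2 fold change -1.39, SE 0.060, adjusted p = 2.48e-09). Ccl7, its neighbour, fell by 1.33 log2 units. Of members named after their values were seen, Lif, a cytokine also supplied in the medium, had 79.2, 83.9 and 79.2 CPM in PVASCs and 438, 414 and 425 CPM in Ab-ASCs (log2 fold change -2.398, SE 0.056, adjusted p = 1.57e-11), Cxcl14 had 119, 117 and 119 CPM in PVASCs and 746, 634 and 637 CPM in Ab-ASCs (log2 fold change -2.51, SE 0.067, adjusted p = 4.43e-11), and Pf4, a platelet chemokine, fell by 3.496 log2 units. Ptgs2, the inducible prostaglandin synthase, fell by 1.003 log2 units. Not every chemokine fell, since Cxcl12, the stromal attractant of stem cells, was higher at 492, 495 and 486 CPM in PVASCs and 279, 270.4 and 264 CPM in Ab-ASCs (log2 fold change 0.86, SE 0.043, adjusted p = 9.98e-09). Serpina3g, an acute-phase protease inhibitor, rose at 24.4, 25.5 and 22.3 CPM in PVASCs and 1.83, 1.87 and 1.96 CPM in Ab-ASCs (log2 fold change 3.67, SE 0.091, adjusted p = 2.69e-11). NF-kB factors and feedback genes were lower in 7 of 8 cases.

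Complement genes divided by role. Of 14 components, 9 were lower and 1 higher, whereas 4 of 7 regulators were higher and 2 lower, which makes 5 higher and 11 lower of 21. Without Ab-ASC replicate 3, or without PVASC replicate 3, 3 were called higher. C3, the central component, had 53.6, 54.2 and 51.7 CPM in PVASCs and 216, 203 and 215 CPM in Ab-ASCs (log2 fold change -1.99, SE 0.047, adjusted p = 1.66e-11). The C1 inhibitor gene Serping1 fell by 1.79 log2 units, while Cd55 (decay-accelerating factor), which limits complement on cell surfaces, was 1.28 log2 units higher.

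Macrophage markers were divided. Of 15 tested, 2 were higher and 7 lower, at a median of -0.26, and in the corrected fit 1 and 4 were called. Without Ab-ASC replicate 1, 4 were called lower, and without Ab-ASC replicate 3, 1 was called higher. Their summed level was 342 to 352 CPM in PVASCs and 356 to 455 CPM in Ab-ASCs. Lyz2, named after its values were seen and not called, made up most of it, at means of 249 and 271 CPM. Cd68, a lysosomal protein of macrophages, had 11.2, 12.3 and 11.3 CPM in PVASCs and 26.1, 21.4 and 21.7 CPM in Ab-ASCs (log2 fold change -0.99, SE 0.089, adjusted p = 1.87e-06), and Cd163, a scavenger receptor, fell by 2.06 log2 units. Csf1r, the receptor for Csf1, fell by 0.58 log2 units, with 15.1% of its exon bases shared with Hmgxb3 on the opposite strand. Clec10a, a lectin of macrophages outside the list, was 40.04-fold lower by pooled reads (95% interval 18.002 to 111).

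Interferon response genes gave different counts by arm. Of 48 tested, 24 were higher and 9 lower in PVASCs, at a median log2 fold change of 0.52. The antiviral effectors gave 13 higher and 2 lower of 21, at a median of 1.03. Interferon-inducible GTPases gave 6 and 1 of 8, of which 3 and 1 were called in the corrected fit. Interferon-induced chemokines and antigen presentation genes gave 0 higher and 4 lower of 10, against 24.7% and 32.1% over all genes tested. Whether the arms differ beyond these counts was not tested. Many antiviral genes share a short element in the promoter, GAAANNGAAA, at which interferon-activated factors bind. Read on both strands in windows of 250 bases before to 50 after the start (RefSeq, GRCm38.p6), these letters occurred in 9 of the 15 effectors that have such a window (60%) and in 443 of 11429 windows of all tested genes (3.88%). The 3 effectors that hold the letters and rose most are printed 5' to 3' on the gene's strand, with the matches in capitals.
Ifit3 (chr19:34583279-34583578, plus strand): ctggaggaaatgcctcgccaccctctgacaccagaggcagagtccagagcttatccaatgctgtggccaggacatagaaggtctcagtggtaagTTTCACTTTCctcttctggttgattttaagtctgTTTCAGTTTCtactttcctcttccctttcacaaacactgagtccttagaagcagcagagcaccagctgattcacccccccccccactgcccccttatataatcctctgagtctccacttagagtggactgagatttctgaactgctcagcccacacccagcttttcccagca
Rsad2 (chr12:26456403-26456702, minus strand): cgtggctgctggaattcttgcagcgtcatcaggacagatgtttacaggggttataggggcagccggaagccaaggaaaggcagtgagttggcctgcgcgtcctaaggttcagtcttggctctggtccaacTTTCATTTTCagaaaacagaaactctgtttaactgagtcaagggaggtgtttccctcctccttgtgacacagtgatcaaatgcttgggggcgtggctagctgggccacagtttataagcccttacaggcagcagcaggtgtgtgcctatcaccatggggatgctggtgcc
Ifit1 (chr19:34640639-34640938, plus strand): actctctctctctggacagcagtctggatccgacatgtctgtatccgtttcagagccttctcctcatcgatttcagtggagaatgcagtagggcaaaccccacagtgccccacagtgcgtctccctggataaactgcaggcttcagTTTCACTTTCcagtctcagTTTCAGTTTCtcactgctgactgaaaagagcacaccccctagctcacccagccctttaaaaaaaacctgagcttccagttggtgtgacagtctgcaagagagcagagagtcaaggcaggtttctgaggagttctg

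Ifit3, whose window holds 2 matches, measured 4.55, 6.34 and 5.25 CPM in PVASCs and 0.644, 1.02 and 0.981 CPM in Ab-ASCs (log2 fold change 2.58, SE 0.18, adjusted p = 1.78e-07). Ifit1, also with 2, measured 7.15, 6.101 and 7.28 CPM in PVASCs and 1.29, 1.33 and 1.25 CPM in Ab-ASCs (log2 fold change 2.41, SE 0.14, adjusted p = 3.41e-08), and Rsad2 (viperin), with 1, measured 1.498, 1.22 and 1.65 CPM in PVASCs and 0.215, 0.0445 and 0.535 CPM in Ab-ASCs (log2 fold change 2.43, SE 0.39, adjusted p = 2.56e-04). These 3 effectors were higher in each PVASC library than in each Ab-ASC library, although their levels were low, and Rsad2 rose by 3.53 log2 units without Ab-ASC replicate 3. Matches occurred in genes of both directions. Oas1a, named after its values were seen, holds the letters and fell by 1.86 log2 units, and Ifi44, with none in its window, rose by 2.495 log2 units. The GTPase Gbp5 was higher by 2.34 log2 units. Among antigen presentation genes, the class I gene H2-D1 was lower, at 65.3, 60.9 and 62.1 CPM in PVASCs and 165, 145 and 145 CPM in Ab-ASCs (log2 fold change -1.27, SE 0.059, adjusted p = 4.53e-09).

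Matrix genes were among those with the largest differences in CPM. Collagens gave 12 higher and 15 lower of 36 tested, split by type. Fibrillar collagens gave 7 lower and 2 higher of 11 at a median of -0.62, and beaded and network-forming collagens gave 6 higher and 1 lower of 7 at 1.06. Col1a1, the main chain of type I collagen, measured 2597, 2582 and 2504 CPM in PVASCs and 5189, 4954 and 5074 CPM in Ab-ASCs (log2 fold change -0.99, SE 0.041, adjusted p = 1.99e-09), and Col5a2, which co-assembles with it, fell by 1.17 log2 units. Col8a1, a vessel wall network collagen, measured 231, 224 and 228 CPM in PVASCs and 31.7, 42.5 and 42.2 CPM in Ab-ASCs (log2 fold change 2.55, SE 0.10, adjusted p = 1.08e-09). Col18a1, the basement membrane source of endostatin, measured 210.3, 218 and 208 CPM in PVASCs and 21.6, 19.9 and 19.3 CPM in Ab-ASCs (log2 fold change 3.39, SE 0.075, adjusted p = 1.05e-11).

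The 2 fibrillar collagens that rose belong to cartilage. Col2a1 had 10.3, 11.4 and 11.7 CPM in PVASCs and 0.0537, 0.133 and 0 CPM in Ab-ASCs, 177-fold higher by pooled reads (95% interval 68.8 to 649), and Col11a1 had 48.6, 51.2 and 54.1 CPM in PVASCs and 6.604, 8.89 and 9.23 CPM in Ab-ASCs (log2 fold change 2.63, SE 0.11, adjusted p = 1.29e-09). The fitted log2 fold change of Col2a1 was 8.57 without Ab-ASC replicate 2 and 6.77 without Ab-ASC replicate 3. Of 8 tested chondrogenic genes, 6 were higher and 0 lower at a median of 1.83, and of 5 osteogenic genes, 1 was higher and 4 lower at -0.79. Col10a1, of hypertrophic cartilage, was 3.098 log2 units higher and Sox6, a partner factor in cartilage, 2.101 log2 units higher. Sp7 (osterix), the bone factor, fell by 2.09 log2 units. Spp1 (osteopontin) showed the largest rise in CPM of any gene, at 10508, 10050.5 and 10407 CPM in PVASCs and 5399.6, 9180.1 and 8139 CPM in Ab-ASCs (log2 fold change 0.45, SE 0.14, adjusted p = 0.0172), and its adjusted p without PVASC replicate 1 was 0.0502, over the threshold.

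Basement membrane and adhesion genes gave 15 higher and 19 lower of 38, with laminins lower in 8 of 11 cases. Lama5, a laminin chain of vessel basement membranes, was an exception at 56.2, 56.5 and 56.9 CPM in PVASCs and 9.45, 10.7 and 11.7 CPM in Ab-ASCs (log2 fold change 2.41, SE 0.092, adjusted p = 8.63e-10), and Nid1 (nidogen), which links laminin to collagen IV, was 0.61 log2 units higher. Itga5, the fibronectin receptor chain, measured 772, 784 and 744 CPM in PVASCs and 2229, 2018 and 2098 CPM in Ab-ASCs (log2 fold change -1.46, SE 0.055, adjusted p = 8.26e-10), while Itga4, which binds Vcam1 and fibronectin, was 3.601 log2 units higher and Itgb8, an activator of latent TGF-beta, 2.44 log2 units higher. Fn1 (fibronectin), a matrix glycoprotein among the genes with the largest difference in CPM, was lower at 9992, 10496 and 9887 CPM in PVASCs and 15323, 14309 and 14745 CPM in Ab-ASCs (log2 fold change -0.55, SE 0.042, adjusted p = 4.84e-07).

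Elastic fibre and proteoglycan genes gave 15 higher and 24 lower of 50. Lum (lumican), a small proteoglycan that spaces collagen fibrils, was at 3.52, 3.15 and 2.67 CPM in PVASCs and 31.1, 43.4 and 37.6 CPM in Ab-ASCs (log2 fold change -3.59, SE 0.13, adjusted p = 6.10e-10). Aspn (asporin) was the reverse, at 2.201, 1.56 and 1.97 CPM in PVASCs and 0, 0.0445 and 0.134 CPM in Ab-ASCs, 30.5-fold higher by pooled reads (95% interval 11.7 to 113). Eln (elastin) was 2.51 log2 units higher from a low level, and Mfap4, a microfibril-associated protein, fell by 1.99 log2 units. Sparc, a collagen-binding glycoprotein, measured 2805, 2932 and 2836 CPM in PVASCs and 5994, 5148 and 5302 CPM in Ab-ASCs (log2 fold change -0.94, SE 0.055, adjusted p = 4.14e-08), and Thbs1 (thrombospondin), an inhibitor of vessel growth, fell by 0.53 log2 units.

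Proteases and their inhibitors gave 18 lower and 9 higher of 32, and metalloproteinases 9 lower and 2 higher of 14. Timp1, a metalloproteinase inhibitor, measured 1516, 1529 and 1607 CPM in PVASCs and 7411, 5462 and 5867 CPM in Ab-ASCs (log2 fold change -2.01, SE 0.094, adjusted p = 5.20e-09), while Timp2 was 0.66 log2 units higher. Mmp13, a collagenase, measured 25.1, 22.2 and 23.8 CPM in PVASCs and 159.6, 255 and 226 CPM in Ab-ASCs (log2 fold change -3.17, SE 0.14, adjusted p = 3.74e-09), Mmp10, a stromelysin, fell by 2.58 log2 units, and Mmp8, the neutrophil collagenase, fell by 3.57 log2 units. The membrane-bound Mmp15 went up by 2.38 log2 units.

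**Figure D4:**
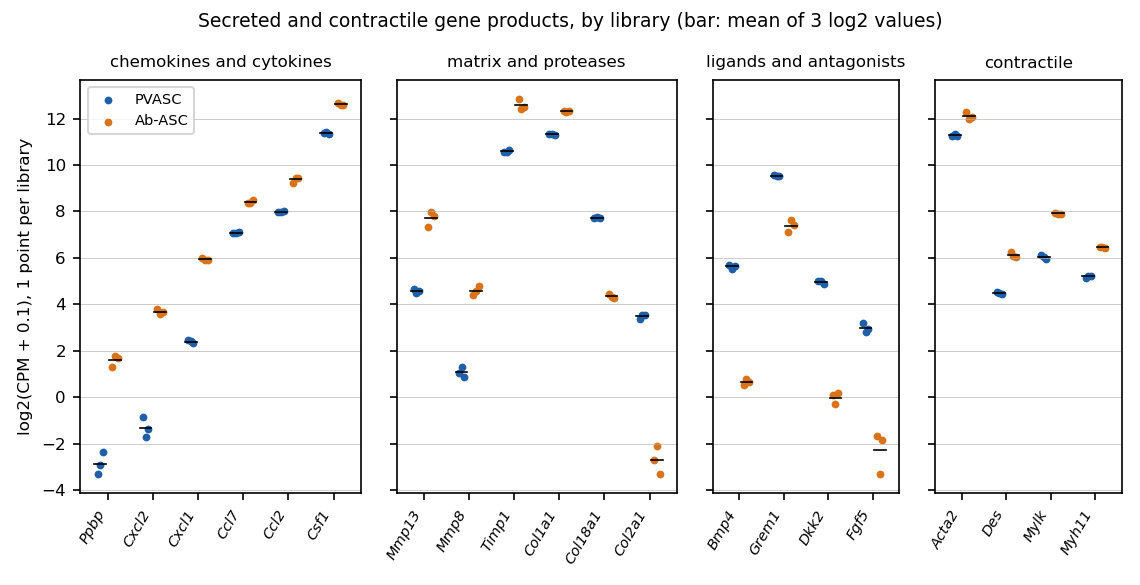
Level of matrix, protease, cytokine, growth factor and contractile genes, as log2 of CPM with 0.1 added, in each PVASC and Ab-ASC library (1 point each), with a bar at the mean of the 3 log2 values. Timp1 and Csf1 are lower and Bmp4 and Grem1 higher in every PVASC library than in any Ab-ASC library.

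Contractile genes of smooth muscle were lower in PVASCs. Of 18 tested, 13 were lower and 1 higher, at a median log2 fold change of -0.69 (-0.504 in the corrected fit). Acta2, smooth muscle actin, measured 2454, 2598 and 2464 CPM in PVASCs and 5042, 4017 and 4249 CPM in Ab-ASCs (log2 fold change -0.82, SE 0.075, adjusted p = 2.14e-06), and Mylk, the kinase that activates myosin, measured 69.4, 66.4 and 62.4 CPM in PVASCs and 248, 239 and 237 CPM in Ab-ASCs (log2 fold change -1.87, SE 0.059, adjusted p = 1.76e-10). Myh11, the smooth muscle myosin heavy chain, measured 35.4, 37.7 and 37.2 CPM in PVASCs and 87.8, 89.9 and 86.1 CPM in Ab-ASCs (log2 fold change -1.26, SE 0.056, adjusted p = 3.42e-09). Each PVASC library was below each Ab-ASC library for all 3. Des (desmin) fell by 1.64 log2 units, and Tpm2, a tropomyosin, and Myl9, a myosin light chain, were lower at log2 fold changes of -0.89 and -0.53. Tagln (SM22) fell by 1.41 log2 units, with 62.4% of its exon bases shared with Gm48529 on the opposite strand.

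Immediate early genes of the serum response were mostly lower, and YAP targets were divided. Together they gave 15 lower and 4 higher of 24, the latter 2 when Ab-ASC replicate 2, Ab-ASC replicate 3 or PVASC replicate 1 was left out. Ctgf, a matricellular YAP target, measured 1317, 1334 and 1284 CPM in PVASCs and 2976, 2709 and 2782 CPM in Ab-ASCs (log2 fold change -1.11, SE 0.051, adjusted p = 4.67e-09). The immediate early genes were lower in 11 of 14 cases, among them Egr2 at -1.67 log2 units, Fosb at -1.53 log2 units and Junb at -0.85 log2 units. The 10 tested YAP targets and partners gave 4 lower and 3 higher at a median of 0.041. Axl, a receptor kinase, fell by 0.64 log2 units, whereas Wwtr1 (TAZ), the partner of YAP, and Crim1, both named after their values were seen, were higher at log2 fold changes of 0.51 and 0.57, and Ankrd1, a target also known from heart muscle, was not called, at 0.024. Of 15 striated muscle genes listed, 9 were tested, with 1 higher and 3 lower. The lower share of 33.3% lies near the 32.1% over all genes tested, and no member was called higher without Ab-ASC replicate 3 or without any 1 of the PVASC libraries. Myl7, the atrial myosin light chain and named after its values were seen, had 0 CPM in each of the 3 PVASC libraries and 0.644, 0.711 and 0.669 CPM in Ab-ASCs, at least 6.64-fold lower. Acta1, skeletal actin, and Tnnc1, cardiac troponin C, were lower at log2 fold changes of -0.797 and -0.91.

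BMP and TGF-beta genes were more often lower, with large rises among the ligands and extracellular antagonists. Of 54 tested, 13 were higher and 26 lower at a median of -0.12. Bmp4, a ligand that drives mesoderm and fat commitment, measured 51.8, 46.5 and 50.8 CPM in PVASCs and 1.34, 1.64 and 1.47 CPM in Ab-ASCs (log2 fold change 5.05, SE 0.12, adjusted p = 2.34e-11), and Bmp2 was 2.06 log2 units higher at 5.99, 6.07 and 5.31 CPM in PVASCs and 1.503, 1.24 and 1.43 CPM in Ab-ASCs. Grem1, a secreted BMP antagonist, measured 752, 744 and 729.8 CPM in PVASCs and 141, 197 and 169 CPM in Ab-ASCs (log2 fold change 2.13, SE 0.10, adjusted p = 3.55e-09). Receptors gave 3 higher and 6 lower of 12, and SMADs and targets 2 higher and 8 lower of 16, with Ctgf among the latter.

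Wnt genes gave 15 higher and 19 lower of 50, shares of 30% and 38% against 24.7% and 32.1% over all genes tested. Ligands gave 1 higher and 5 lower of 10, and antagonists and enhancers gave 8 and 3 of 12. Dkk2, which binds the LRP co-receptors, measured 31.7, 31.9 and 29.2 CPM in PVASCs and 0.966, 0.711 and 1.03 CPM in Ab-ASCs (log2 fold change 5.1001, SE 0.14, adjusted p = 5.56e-11). Dkk3 had 83.1, 75.3 and 73.03 CPM in PVASCs and 9.13, 10.7 and 11.5 CPM in Ab-ASCs (log2 fold change 2.88, SE 0.088, adjusted p = 1.35e-10), and the frizzled decoys Sfrp4 and Sfrp1 were higher at log2 fold changes of 4.32 and 0.58. Rspo2, an enhancer of Wnt signalling, was 4.42 log2 units higher, and 5.09 higher without Ab-ASC replicate 3. The receptor Fzd6 measured 65.1, 62.7 and 64.8 CPM in PVASCs and 3.81, 3.87 and 3.701 CPM in Ab-ASCs (log2 fold change 4.08, SE 0.094, adjusted p = 1.55e-11), while Fzd1 fell by 0.81 log2 units.

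Notch pathway genes were mostly higher in PVASCs. Of 18 genes, all tested, 13 were higher and 2 lower, at a median log2 fold change of 1.07 (1.18 in the corrected fit). The ligand Jag1 measured 57.1, 58.2 and 56.5 CPM in PVASCs and 24.1, 27.6 and 26.6 CPM in Ab-ASCs (log2 fold change 1.13, SE 0.068, adjusted p = 5.07e-08), and the receptor Notch3, of mural cells, measured 41.1, 39.9 and 36.9 CPM in PVASCs and 10.04, 8.85 and 9.63 CPM in Ab-ASCs (log2 fold change 2.05, SE 0.076, adjusted p = 6.97e-10). Notch2, the exception among receptors, fell by 0.67 log2 units. Without PVASC replicate 3, 1 member was called lower. The target factor Heyl measured 4.92, 5.22 and 4.899 CPM in PVASCs and 0.805, 0.578 and 0.803 CPM in Ab-ASCs (log2 fold change 2.78, SE 0.20, adjusted p = 2.94e-07). Its relative Hey1 measured 3.301, 2.44 and 2.54 CPM in PVASCs and 0.268, 0.667 and 0.5797 CPM in Ab-ASCs (log2 fold change 2.41, SE 0.30, adjusted p = 3.14e-05). Hes1, the most abundant target per length, was 0.47 log2 units higher. Nrarp, a feedback inhibitor, was 69.9-fold higher by pooled reads (95% interval 19.1 to 581), with 79.4% of its exon bases shared with Gm38287 on the opposite strand, which had no read.

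The Hedgehog ligands Shh and Dhh were higher in PVASCs. Shh had 1.34, 0.644 and 1.18 CPM in PVASCs and 0 CPM in each of the 3 Ab-ASC libraries, at least 6.55-fold higher, and Dhh, the ligand of Schwann cells, had 3.36, 4.44 and 4.33 CPM in PVASCs and 0.322, 0.489 and 0.134 CPM in Ab-ASCs (log2 fold change 3.66, SE 0.29, adjusted p = 7.02e-07). The pathway as a whole gave 5 higher and 5 lower of 13. The inhibitor Hhip was 2.49 log2 units higher and the co-receptor Gas1 0.33 log2 units higher, whereas the co-receptor Boc fell by 1.55 log2 units. FGF genes gave 6 higher and 10 lower of 21, against 24.7% and 32.1% over all genes tested. Fgf5, a ligand of hair cycle control, had 9.11, 6.95 and 7.48 CPM in PVASCs and 0.215, 0 and 0.178 CPM in Ab-ASCs (log2 fold change 5.91, SE 0.35, adjusted p = 4.62e-08), and without Ab-ASC replicate 2 its log2 fold change was 5.29. Etv1, a target factor, was 2.303 log2 units higher, and 1.67 in the corrected fit. Fgf18, a ligand of skeletal growth, fell by 1.58 log2 units, and the receptor Fgfr3 and the feedback phosphatase Dusp6 were lower at log2 fold changes of -1.799 and -1.05.

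IGF genes gave 7 higher and 3 lower of 12. Igfbp5, a binding protein of stromal matrix, measured 341, 350.3 and 344 CPM in PVASCs and 37.1, 39.2 and 37.4 CPM in Ab-ASCs (log2 fold change 3.19, SE 0.053, adjusted p = 1.86e-12). Igfbp3 was 0.89 log2 units higher, and Igfbp2 and Igfbp7 were lower at log2 fold changes of -1.42 and -0.35. The receptors were higher in 3 of 3 cases, with Igf2r at 0.56 log2 units. Imprinted and oncofetal genes gave 15 higher and 3 lower of 22 at a median of 0.55. H19, an imprinted RNA, measured 17.3, 17.6 and 17.1 CPM in PVASCs and 2.15, 2.18 and 3.08 CPM in Ab-ASCs (log2 fold change 2.802, SE 0.13, adjusted p = 5.41e-09). Dlk1, which keeps preadipocytes undifferentiated, measured 26.4, 27.1 and 23.1 CPM in PVASCs and 3.704, 3.87 and 3.701 CPM in Ab-ASCs (log2 fold change 2.76, SE 0.10, adjusted p = 4.71e-10), and Mest was 3.36 log2 units higher, with 23.1% of its exon bases shared with Copg2 on the opposite strand. Igf2bp3 and Igf2bp1, which bind fetal mRNAs, were 2.81 and 2.304 log2 units higher.

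VEGF, angiopoietin and vasoactive genes gave 16 higher and 7 lower of 29, all tested. Vegfa, the main ligand, was lower at 257, 242 and 245 CPM in PVASCs and 517, 563 and 532 CPM in Ab-ASCs (log2 fold change -1.12, SE 0.052, adjusted p = 4.84e-09), while 4 of 5 receptors were higher, including Flt4, of lymphatic vessels, at 2.62 log2 units. Nos3, the endothelial nitric oxide synthase, had 8.71, 10.4 and 9.22 CPM in PVASCs and 0.537, 0.711 and 0.535 CPM in Ab-ASCs (log2 fold change 3.97, SE 0.20, adjusted p = 1.09e-08). Npr3, the natriuretic peptide clearance receptor, was 2.74 log2 units higher. Ptgis, the prostacyclin synthase, and Angptl2 were lower at log2 fold changes of -1.27 and -1.21.

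Axon guidance and neurotrophic genes gave 25 higher and 11 lower of 44, led by semaphorins and plexins with 11 higher and 2 lower of 13 at a median of 1.36. Bdnf, a neurotrophin, measured 68.6, 61.2 and 60.9 CPM in PVASCs and 4.35, 6.401 and 6.24 CPM in Ab-ASCs (log2 fold change 3.48, SE 0.12, adjusted p = 3.95e-10), and Ntf3 measured 1.13, 0.983 and 0.954 CPM in PVASCs and 0 CPM in each of the 3 Ab-ASC libraries, at least 6.35-fold higher. Of the guidance receptors, Epha3 and Epha7 were 3.62 and 2.498 log2 units higher. Slit3, a repellent ligand, fell by 0.76 log2 units, and the semaphorin Sema7a fell by 0.58 log2 units.

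Markers of the adipose progenitor hierarchy were evenly divided, with 14 higher and 13 lower of 28. Mgp, the matrix inhibitor of calcification, measured 643, 649 and 676 CPM in PVASCs and 118, 95.3 and 97.8 CPM in Ab-ASCs (log2 fold change 2.66, SE 0.076, adjusted p = 7.71e-11), and Ly6c1, an antigen of endothelial and stromal cells, had 12.8, 14.4 and 13.96 CPM in PVASCs and 1.18, 0.578 and 1.204 CPM in Ab-ASCs (log2 fold change 3.804, SE 0.15, adjusted p = 9.02e-10). Limch1, an actomyosin regulator, was 2.81 log2 units higher, and F3, the coagulation receptor that marks adipogenesis-regulatory cells, fell by 0.303 log2 units. Of the 9 markers of interstitial progenitors, 4 were higher and 5 lower. Among falls named after their values were seen, Dpp4, a peptidase that defines these progenitors, measured 1.19, 1.66 and 1.304 CPM in PVASCs and 6.17, 9.601 and 9.72 CPM in Ab-ASCs (log2 fold change -2.63, SE 0.18, adjusted p = 1.91e-07), Wnt2, a Wnt ligand, fell by 2.66 log2 units, and the proteoglycan Dcn (decorin) fell by 1.7003 log2 units, a log2 fold change that was -2.35 in the corrected fit. Adipogenic and lipid genes gave 8 higher and 11 lower of 32 tested out of 38, shares of 25% and 34.4% that lie near the 24.7% and 32.1% over all genes tested. Lpl, the lipase that releases fatty acids from lipoproteins, measured 109, 108 and 110.2 CPM in PVASCs and 326, 425 and 389.99 CPM in Ab-ASCs (log2 fold change -1.804, SE 0.081, adjusted p = 3.41e-09). Plin4, a lipid droplet protein, rose at 8.41, 8.47 and 8.75 CPM in PVASCs and 0.591, 0.622 and 1.29 CPM in Ab-ASCs (log2 fold change 3.32, SE 0.18, adjusted p = 2.23e-08). Prdm16, a factor of brown fat, was higher at 9.48, 9.76 and 8.78 CPM in PVASCs and 2.95, 3.11 and 3.03 CPM in Ab-ASCs (log2 fold change 1.62, SE 0.15, adjusted p = 2.39e-06). Dio2, which activates thyroid hormone, was higher at 35.7, 33.995 and 33.7 CPM in PVASCs and 6.82, 8.45 and 7.67 CPM in Ab-ASCs (log2 fold change 2.17, SE 0.11, adjusted p = 9.63e-09). Cebpb, an early adipogenic factor, fell by 0.88 log2 units, and Klf15 was 1.18 log2 units higher.

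Cholesterol synthesis genes were more often higher, 15 of 23 against 2 lower, at a median of 0.34, and fatty acid synthesis gave 2 higher and 4 lower of 11. The fatty acid counts lie near the 24.7% higher and 32.1% lower over all genes tested. Idi1, an isomerase of the pathway, measured 24.5, 22.8 and 24.1 CPM in PVASCs and 4.35, 8.58 and 8.65 CPM in Ab-ASCs (log2 fold change 1.71, SE 0.17, adjusted p = 4.73e-06), and Hmgcs1, its entry enzyme and named after its values were seen, was 0.79 log2 units higher. Scd2, a desaturase, was 0.69 log2 units higher, and the related Scd1 fell by 0.51 log2 units.

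Antioxidant and stress genes were lower in PVASCs. Of 44 tested, 32 were lower and 6 higher, at a median log2 fold change of -0.48 (-0.34 in the corrected fit). The higher count was 3 without Ab-ASC replicate 3. Targets of the factor Nrf2 gave 13 lower and 1 higher of 16, and the metallothioneins, which bind zinc and copper, 3 of 3 lower. Nrf2 acts at the antioxidant response element, searched as TGACNNNGC on both strands. These letters occurred in the windows of 7 of 13 Nrf2 targets that have one (53.8%) and in 1914 of 11429 windows of all tested genes (16.7%). The 3 targets that hold the letters and fell most are printed 5' to 3' on the gene's strand, with the match in capitals.
Gsta3 (chr1:21240335-21240634, plus strand): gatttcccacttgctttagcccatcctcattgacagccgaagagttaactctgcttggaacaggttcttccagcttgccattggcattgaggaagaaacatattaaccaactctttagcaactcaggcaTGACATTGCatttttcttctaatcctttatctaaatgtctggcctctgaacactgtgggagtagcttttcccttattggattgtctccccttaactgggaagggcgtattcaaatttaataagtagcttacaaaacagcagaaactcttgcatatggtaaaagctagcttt
Srxn1 (chr2:152105274-152105573, plus strand): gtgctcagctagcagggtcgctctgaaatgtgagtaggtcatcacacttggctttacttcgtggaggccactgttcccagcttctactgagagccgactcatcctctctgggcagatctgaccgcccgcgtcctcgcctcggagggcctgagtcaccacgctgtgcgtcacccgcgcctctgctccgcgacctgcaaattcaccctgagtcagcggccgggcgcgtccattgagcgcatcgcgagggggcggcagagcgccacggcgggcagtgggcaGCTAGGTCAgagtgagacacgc
Txnrd1 (chr10:82858956-82859255, plus strand): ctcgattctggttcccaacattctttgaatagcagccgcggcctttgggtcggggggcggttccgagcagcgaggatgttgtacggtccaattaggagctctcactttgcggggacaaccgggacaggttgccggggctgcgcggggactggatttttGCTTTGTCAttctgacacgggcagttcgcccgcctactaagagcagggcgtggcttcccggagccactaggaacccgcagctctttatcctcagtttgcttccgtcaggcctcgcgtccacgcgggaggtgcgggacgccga

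Gsta3, a glutathione transferase, measured 6.76, 8.54 and 7.22 CPM in PVASCs and 53.9, 40.4 and 44.7 CPM in Ab-ASCs (log2 fold change -2.63, SE 0.12, adjusted p = 5.25e-09). Of members named after their values were seen, Srxn1 (sulfiredoxin), which restores oxidised peroxiredoxins, had 190.01, 194 and 182 CPM in PVASCs and 414, 354 and 371 CPM in Ab-ASCs (log2 fold change -1.01, SE 0.061, adjusted p = 5.08e-08), and Txnrd1 (thioredoxin reductase) had 709, 720.2 and 682 CPM in PVASCs and 1416, 1388 and 1389.8 CPM in Ab-ASCs (log2 fold change -0.99, SE 0.044, adjusted p = 3.07e-09). Hmox1 (heme oxygenase), the most abundant Nrf2 target per length, measured 442, 473 and 462 CPM in PVASCs and 1351, 1139.9 and 1225 CPM in Ab-ASCs (log2 fold change -1.43, SE 0.061, adjusted p = 2.25e-09). In each of these 4 genes every PVASC library lay below every Ab-ASC library. Targets without a match fell as well, among them Slc7a11, named after its values were seen, by 1.1 log2 units. Nqo1 and Gstm1, also without a match, were not called. The metallothionein Mt3 fell by 4.02 log2 units, and Mt2 and Mt1, named after their values were seen, were lower at log2 fold changes of -1.23 and -1.05. The heat shock gene Hspa1a and Chac1, of the integrated stress response, were lower at log2 fold changes of -1.81 and -1.44, and so were the endoplasmic reticulum chaperones Calr and Hspa5, at -0.58 and -0.29 log2 units.

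Energy metabolism genes encoded in the nucleus were lower by small folds. Glycolysis genes gave 17 lower and 1 higher of 19, at a median of -0.51, and hypoxia targets 6 lower and 5 higher of 14. Ldha, the lactate dehydrogenase, measured 1212, 1284 and 1230.2 CPM in PVASCs and 2343, 1863 and 2013 CPM in Ab-ASCs (log2 fold change -0.74, SE 0.075, adjusted p = 5.46e-06). The glycolytic enzymes Pkm and Aldoa were lower at log2 fold changes of -0.38 and -0.57, and Slc16a3, which exports lactate, and P4ha2, a collagen hydroxylase, were lower at log2 fold changes of -1.43 and -1.66. Adm (adrenomedullin), a vasodilator peptide among the hypoxia targets, rose at 132, 125 and 129 CPM in PVASCs and 43.8, 41.03 and 39.7 CPM in Ab-ASCs (log2 fold change 1.64, SE 0.054, adjusted p = 2.46e-10). Gapdh was listed at 17.9, 16.7 and 37.7 CPM in PVASCs and 335, 152 and 208 CPM in Ab-ASCs, which is uncertain because it has many near-identical copies in the genome among which counting could split its reads.

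Oxidative phosphorylation genes gave 42 lower and 8 higher of 67 at a median of -0.32, and all 8 higher ones were among the 12 tested genes of the mitochondrial genome. The latter direction did not hold in the corrected fit, where 1 was higher and 5 lower, whereas the nuclear genes of complex I gave 17 lower of 22 before the correction and 14 after it. mt-Cytb (cytochrome b), one of the 8 genes with the largest rise in CPM, measured 2032, 2068 and 1936 CPM in PVASCs and 752, 939 and 978 CPM in Ab-ASCs (log2 fold change 1.18, SE 0.10, adjusted p = 1.29e-06). Cytosolic ribosomal protein genes gave 49 lower and 0 higher of 77 at a median of -0.299, and 29 were lower in the corrected fit. Without PVASC replicate 1 or 2 the lower calls were 28 or 27. Rplp0 measured 1966, 2078 and 2129.7 CPM in PVASCs and 3051, 2265 and 2485 CPM in Ab-ASCs (log2 fold change -0.34, SE 0.093, adjusted p = 0.00818). Many of these genes have processed pseudogenes that could share their reads.

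Cell cycle genes were slightly lower. DNA replication genes gave 23 lower and 2 higher of 33 at a median of -0.304, and mitosis genes 20 lower and 7 higher of 34 at -0.38. Rrm1 and Rrm2, the subunits of ribonucleotide reductase, were lower at log2 fold changes of -0.905 and -0.86. Pcna, the replication clamp, measured 122, 119 and 122 CPM in PVASCs and 167, 148 and 147 CPM in Ab-ASCs (log2 fold change -0.35, SE 0.064, adjusted p = 6.14e-04). Some mitosis genes went up, with Mki67 at 134, 143 and 142 CPM in PVASCs and 53.7, 92.6 and 91.7 CPM in Ab-ASCs (log2 fold change 0.81, SE 0.16, adjusted p = 0.00117) and Cenpf at 1.23 log2 units, and in the corrected fit their log2 fold changes were 0.69 and 0.82. The CDK inhibitor and p53 list gave 13 higher and 5 lower of 27. Cdkn2a, the Ink4a and Arf locus of senescence, measured 47.04, 43.6 and 49.3 CPM in PVASCs and 7.57, 6.53 and 4.68 CPM in Ab-ASCs (log2 fold change 2.91, SE 0.13, adjusted p = 2.68e-09), and its neighbour Cdkn2b was 1.31 log2 units higher. The p53 targets Trp53inp1 and Ccng1 were 2.35 and 0.99 log2 units higher, and Plk2 fell by 0.98 log2 units.

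**Figure D5:**
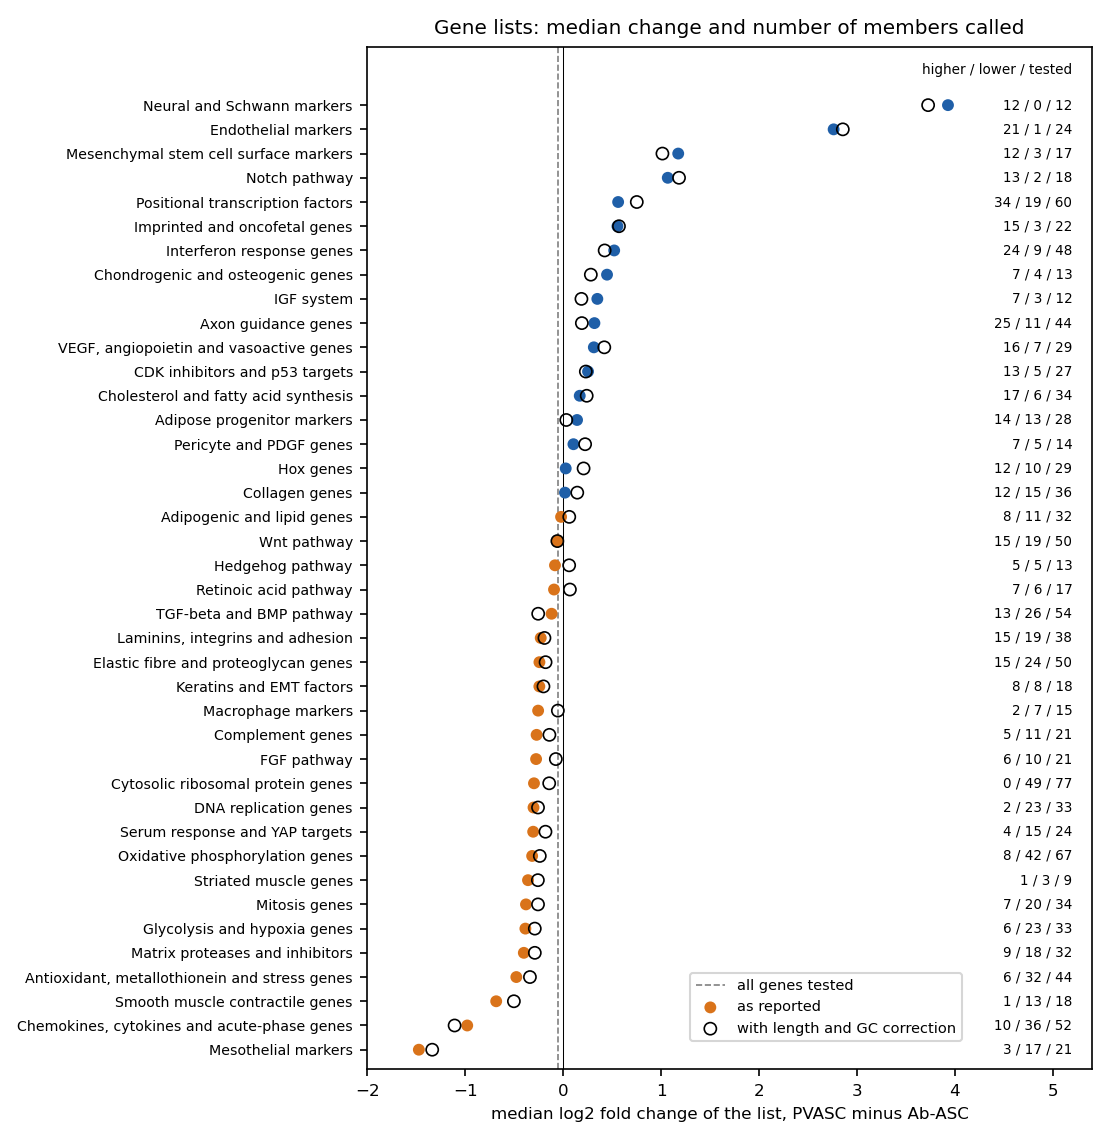
Median log2 fold change (PVASC minus Ab-ASC, horizontal axis) of the tested members of each of the 40 gene lists, before and after the length and GC correction, with the numbers called higher, called lower and tested at the right. Filled points are before the correction, blue above 0 and orange below, open circles after it, and the dashed line is the median of all genes. Neural and Schwann markers lie highest at 3.93, endothelial markers next at 2.76, and mesothelial markers lowest at -1.48.

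Several of the largest changes lay outside the lists. Bmx, a kinase of arterial endothelium, was at 3.33, 2.54 and 3.09 CPM in PVASCs and 0 CPM in each of the 3 Ab-ASC libraries and at least 18.5-fold higher. Eya1, a transcriptional cofactor of organ development, and Galnt13, which starts sugar chains on proteins, were at least 10.2-fold and 10.1-fold higher, and neither had a read in Ab-ASCs. Among the falls, Erv3, an endogenous retroviral gene, was at 0, 0 and 0.0318 CPM in PVASCs and 3.27, 2.93 and 2.68 CPM in Ab-ASCs and 276-fold lower by pooled reads (95% interval 48.9 to 10943). Slc36a2, an amino acid transporter, and Fermt1, an integrin activator of epithelia, had 5 and 1 reads over the 3 PVASC libraries against 297 and 100 in Ab-ASCs. Slc36a2 was 87.5-fold lower by pooled reads (95% interval 37.1 to 272), and Fermt1 was 147-fold lower by pooled reads (95% interval 25.9 to 5878). Dmrt2, a factor of somite development, measured 0.153, 0.0678 and 0.0954 CPM in PVASCs and 3.704, 3.601 and 4.64 CPM in Ab-ASCs (log2 fold change -5.16, SE 0.27, adjusted p = 1.26e-08). Emp1, a membrane protein of epithelia, was one of the 8 genes with the largest rise in CPM, at 1612, 1663 and 1605 CPM in PVASCs and 948, 912 and 887 CPM in Ab-ASCs (log2 fold change 0.83, SE 0.044, adjusted p = 1.42e-08).

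By chromosome, the mitochondrial genome and the Y chromosome differed most. Mitochondrial genes took 1.28% to 1.36% of reads in PVASCs and 0.5804% to 0.824% in Ab-ASCs, and Y genes 0.0171% to 0.01799% and 0.00434% to 0.00755%. The shares of 18 of 22 chromosomes did not overlap between the groups. With 3 against 3 libraries the exact two-sided permutation test cannot go below p = 0.1, and the smallest adjusted p was 0.122, so none passed the threshold. On the autosomes and the X chromosome the median log2 fold change ran only from -0.15 to 0.13. The 24 tested mitochondrial genes had a median of 0.51, which was -0.13 in the corrected fit. Of 7 tested Y genes, 6 were higher, and their median of 1.25 was 0.46 in the corrected fit. Ddx3y, an RNA helicase named after its values were seen, measured 62.6, 65.7 and 62.7 CPM in PVASCs and 15.2, 22.6 and 26.7 CPM in Ab-ASCs (log2 fold change 1.56, SE 0.15, adjusted p = 3.35e-06), a log2 fold change that was 0.82 in the corrected fit. The female-specific Xist stayed at or under 0.203 CPM in all 6 libraries.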

How the data were processed

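Libraries were prepared from Trizol-extracted RNA with the NEBNext Ultra kit. The submitters' processing notes name CASAVA 1.8, Bowtie 0.12.2 and featureCounts 1.5.0-p3, and both mm8 and mm10. The authors deposited whole-number read counts per gene, not normalized. Whether counting used strand was not given in the sources used here, so overlapping genes on opposite strands cannot be told apart. Of the 54532 genes, 53499 (98.1%) had the start and end of GENCODE M21 on GRCm38, the build of the coordinates printed. All 9 sample columns were used and no per-sample column was left out. Groups came from the sample titles and tissue labels.

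From these counts, genes with enough reads (filterByExpr over the 3 groups) were fitted with edgeR 4.0.16 in R 4.3.3, with TMM scaling, 1 mean per group and the quasi-likelihood F-test, and p-values were adjusted by Benjamini-Hochberg over all genes tested. FPKM divides CPM by gene length. Chromosome shares were compared by an exact two-sided permutation test. The list medians given were the same to 2 decimals with genes without a read in 1 group set at their lower bound. Scripts were tested on simulated data. Promoter windows came from RefSeq (GRCm38.p6).

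The genes described and the 40 lists (1277 genes, 1275 in the table) were chosen with earlier results of these data known. Named were the 12 protein-coding genes with the largest fold change in each direction at 1 CPM or more in the higher group, the 8 with the largest CPM difference, up to 5 per list by fold and 3 by FPKM, defining members near 0, Tbx20 and surface markers, with additions marked as named after their values were seen. Some genes that these rules choose are not reported here.

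Alternatives were DESeq2 1.42.0, limma 3.58.1 voom with group weights, RLE size factors, 2 other filters on low counts, the 6 libraries alone, a replicate block, a 2-fold threshold, and each library left out in turn. The length and GC correction (loess, span 0.5) was added after the trend was seen.

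Replicate numbers in the titles did not pair the libraries. The correlations of deviations from the group means were -0.026, -0.019 and -0.0087 for same-numbered PVASC and Ab-ASC libraries.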

Additional observations from a re-analysis of the deposited data

How the results depend on the processing

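Between 8099 and 9807 genes were called under DESeq2, limma voom, RLE size factors, both other filters on low counts, the fit of the 6 libraries and the length and GC correction, against 9396 in the report. DESeq2 called 4188 genes higher and 4952 lower, and the 6 libraries alone gave 4305 and 4149, so that the excess of lower calls was not seen in the fit of the 6 libraries alone. Requiring a 2-fold change besides the adjusted p left 2551 genes, 1673 higher and 878 lower. With 1 library left out, 8294 to 9675 genes were called, 3595 to 4249 higher and 4646 to 5426 lower. Of the 9396 calls, 7466 (79.5%) were also made in the same direction after the length and GC correction, which was chosen after seeing the data and called 89 genes in the opposite direction. No gene was called in opposite directions under any of the other alternatives.

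The numbers of the replicates did not pair the libraries. With the replicate block, 9183 genes were called, 4013 higher and 5170 lower, and the libraries did not each correlate best with their own number.

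Of the genes named, 248 were followed through the alternatives, and 240 of them kept their call and direction in each alternative that tested them. This leaves aside the 2-fold threshold, which by construction drops smaller changes, and the filter of 10 reads in each of the 6 libraries did not test 48 of them. Those whose call or direction changed were Spp1 and Ptprc, described in the report, the endothelial genes Klf2, Cldn5 and Sox17, and Kcnj8, Abcc9 and Ankrd1. Klf2 was called lower in the report, had a log2 fold change of 0.061 in the corrected fit, and passed the threshold only without Ab-ASC replicate 3 among the alternatives. Of genes called in none of the alternatives and near 0, with 1 library left out Cldn5 ran from -0.44 to 0.019, Ankrd1 from -0.022 to 0.073, Kcnj8 from -0.38 to 0.25 and Abcc9 from -0.26 to 0.28. Kcnj8 was at 0.0605 after the length and GC correction, and Abcc9 at 0.019 under DESeq2 and RLE, 0.059 under voom, 0.078 in the 6 libraries and 0.0017 with the replicate block. Sox17, not called, passed the threshold in 4 alternatives. Counts of list members were within 1.5 times the reported count in 1083 of 1200 values.

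The mitochondrial log2 ratio of read shares (0.84) was 0.69 to 0.93 with 1 library left out, 0.51 as the median of the tested genes and 0.37 without the 10 genes with most reads. The Y ratio (1.46) was 1.24 to 1.60 with 1 library left out, and 1.25 as the median of the tested genes, which was 0.46 after the length and GC correction. Without its 10 genes with most reads the Y chromosome had too few reads for a value.

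Where a group had no read, the depth gave only a lower bound for the fold. The passage of each library, within the range 3 to 6, was not given, and its part in the differences was not tested. Ab-ASC replicate 1 had the steepest GC trend, and the cause of the changes under the length and GC correction was not tested.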
